A study of Mus musculus with 24 samples.

Results

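The genes described here encode cytokines, chemokines and their receptors in the mouse gastrointestinal tract. They were chosen by name: every probe set whose platform symbol begins with Ccl, Ccr, Cxcl, Cxcr, Tnfsf or Tnfrsf, or with Il and a digit. This gave 114 probe sets with 1 listed gene, covering 97 genes, among 12488 probe sets on the array. A further 7 probe sets with such a symbol list several genes and are not named. The 114 divide into 15 for CC chemokines, 11 for CXC chemokines, 14 for chemokine receptors, 27 for interleukins (the antagonists and a binding protein included), 28 for interleukin receptor subunits, 5 for ligands of the tumour necrosis factor (TNF) superfamily and 14 for its receptors.

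Cytokines are small secreted or membrane-bound proteins through which epithelial, stromal and immune cells signal to each other. Chemokines are cytokines that draw leukocytes along a gradient by binding G protein-coupled receptors, and in the gut some are made continuously to place lymphocytes in the wall. Interleukins of the IL-1 family, among them IL-1 alpha, IL-18 and the antagonists encoded by Il1rn and Il1f5, are prominent in epithelium, and TNF superfamily members act in cell survival and in the building of lymphoid tissue.

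RNA was taken from whole pieces of rectum, descending colon, jejunum and corpus (the stomach apart from the antrum) of germ-free mice, which carry no microbiota, and of conventional mice, which carry one. The groups are germ-free rectum, conventional rectum, germ-free descending colon, conventional descending colon, germ-free jejunum, conventional jejunum, germ-free corpus and conventional corpus, with 3 arrays in each and 24 in all. Per the labels, the descending colon and the rectum are neighbouring pieces at the end of the gut, and all pieces were washed before freezing. Strain, sex and age are not given in the labels used here, and neither is the mouse behind each array. The p-values therefore rest on differences among arrays that may be partly technical. In whole tissue, fewer cells of a type and less RNA per cell cannot be told apart.

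Values are signal intensities in arbitrary units, and a common scaling by the authors was inferred from the values. Signals under 21.2 were set to that floor before log2 was taken, and 9033 probe sets with a signal above 51.5 on at least 3 arrays were tested with limma. "Called" means a Benjamini-Hochberg adjusted p under 0.05 over those 9033. The floor caught between 17.6% and 28.5% of each array's probe sets. Having 3 arrays in a group limits the precision.

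In 3 libraries the markers of gut region ran against the label. Conventional jejunum 3 showed 1626 for the hindgut homeobox gene Hoxb13 and 13.8 for Apoa4, an apolipoprotein made during fat absorption. Conventional rectum 1 showed the reverse, with Hoxb13 at 41.7 and Apoa4 at 2766. Germ-free corpus 3 showed 176 for Atp4a, which encodes part of the gastric acid pump, and 1399 for Hoxb13. Markers were mixed in others. Atp4a reached 1968 in germ-free rectum 1, and Hoxb13 stood at 112 in the library named germ-free descending colon 1, which kept the hindgut gene Car1 at 6818. Atp4a was also at 874.3 in germ-free jejunum 3, against 110.6 to 185.9 on the other jejunal arrays, and Car1 was at 1432.5 in germ-free corpus 2, against 9.2 to 12.6 in conventional corpus. All 24 stayed under their labels. Values "without 3 libraries" leave out the first 3, and those "without 5 libraries" also germ-free rectum 1 and germ-free descending colon 1. Germ-free jejunum 3 and germ-free corpus 2 stayed in both and were left out only in the omissions of single arrays. That alternative was chosen after seeing the data, and leaving out libraries that resemble another region enlarges regional differences by construction.

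The differences past the threshold among these genes were nearly all between regions. The 250 bases before the listed starts of Ccl25, Il1f5, Il1rn and Il18 are printed here because these genes changed between regions in different combinations (RefSeq, GRCm38.p6; both starts listed for Ccl25, the most 5′ one for the others). Capitals mark matches to any of 6 motifs searched on both strands.
Ccl25, start 1, chr8:4324960-4325209, plus strand: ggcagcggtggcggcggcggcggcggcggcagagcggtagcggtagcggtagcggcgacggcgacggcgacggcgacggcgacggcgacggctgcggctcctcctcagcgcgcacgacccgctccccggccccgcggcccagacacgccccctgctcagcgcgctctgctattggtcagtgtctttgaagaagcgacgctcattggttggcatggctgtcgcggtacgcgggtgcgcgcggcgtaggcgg
Ccl25, start 2, chr8:4349338-4349587, plus strand: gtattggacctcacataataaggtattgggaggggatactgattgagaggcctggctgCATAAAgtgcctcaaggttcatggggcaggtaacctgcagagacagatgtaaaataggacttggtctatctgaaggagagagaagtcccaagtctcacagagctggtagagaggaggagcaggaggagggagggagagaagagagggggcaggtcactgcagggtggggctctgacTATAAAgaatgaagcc
Il1f5, chr2:24276704-24276953, plus strand: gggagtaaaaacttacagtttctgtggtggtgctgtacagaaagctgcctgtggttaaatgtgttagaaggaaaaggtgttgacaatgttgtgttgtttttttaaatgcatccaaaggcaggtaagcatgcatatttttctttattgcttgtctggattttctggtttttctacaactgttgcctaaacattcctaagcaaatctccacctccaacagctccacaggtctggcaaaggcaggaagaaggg
Il1rn, chr2:24336610-24336859, plus strand: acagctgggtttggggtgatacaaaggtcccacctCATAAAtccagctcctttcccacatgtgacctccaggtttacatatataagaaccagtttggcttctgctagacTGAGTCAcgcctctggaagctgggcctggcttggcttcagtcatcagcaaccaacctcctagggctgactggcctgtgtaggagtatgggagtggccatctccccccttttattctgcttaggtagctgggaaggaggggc
Il18, chr9:50554450-50554699, plus strand: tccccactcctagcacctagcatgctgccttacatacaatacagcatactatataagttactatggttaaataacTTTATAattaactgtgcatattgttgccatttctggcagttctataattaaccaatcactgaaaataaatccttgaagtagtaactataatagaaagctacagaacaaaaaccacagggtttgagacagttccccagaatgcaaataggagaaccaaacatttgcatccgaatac

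Ccl25's second start had a TATA box (TATAAA) beginning 16 bases and a CDX-type match (TTTATG) beginning 192 bases before it, and the first start had no match. Il1rn had an AP-1 match (TGANTCA) at 141 bases and a CDX-type match at 215 bases, and Il18 had TATAAA at 175 bases before its start. The CDX-type matches (printed as CATAAA) and that of Il18 (printed as TTTATA) read on the minus strand. Il1f5, which lies on chromosome 2 like Il1rn, had none. The other motifs searched were those of GATA factors, spelled TGATAA, of the hepatocyte nuclear factor HNF4, spelled CAAAGTCCA, and of NF-kappa B. They were found in none of the 5 windows, and no match overlapped another. Over 32851 windows of the same length, 12.4% held the TATA box, 10.8% the CDX-type motif, 7.94% the GATA motif, 6.75% the AP-1 motif, 1.41% the kappa B motif and 0.384% the HNF4 motif. These matches describe letters only.

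Many cytokine genes were dim. Of the 114 probe sets, 58 (50.9%, covering 51 genes) passed the filter on low signal, against 9033 of 12422 (72.7%) over the array without its control probe sets. Signals lay at or under the floor on all 24 arrays for 13 of 114 (11.4%), against 7.29% over the array. Passing was most frequent among TNF superfamily receptors (10 of 14), interleukin receptor subunits (18 of 28) and CXC chemokines (7 of 11). Of the chemokine receptors 7 of 14 passed, and of the CC chemokines 7 of 15. Interleukins passed in 8 of 27 cases and TNF superfamily ligands in 1 of 5. A member that passed only through the group where it is high had to differ between groups, so counts over the 58 describe measured members and not the whole set. Of the members called between regions, Ccl11, Il1a, Il1f5 and Il1r2 (161689_f_at) would not have passed without the corpus arrays. Ccl25 and Tnfsf10 would not have passed without the jejunal arrays. Their p-values in comparisons with those regions are therefore not independent of the filter.

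Several cytokines best known from acute inflammation stayed near the floor in both microbial states. Il1b, the secreted inflammasome product, had a median of 10.4 and a highest signal of 25.4, above the floor on 1 of 24 arrays. Il6, an inducer of the acute phase response, reached 38.8 and passed the floor on 3 arrays. Il10, an anti-inflammatory interleukin, reached 27.2 on its gene probe set (100319_at), above the floor on 2 arrays, and 46.2 on its control probe set, above the floor on 9. The T cell cytokine Il17a reached 49.9, above the floor on 5 arrays, and Il2, the T cell growth factor, stayed at or under 3.5. Among chemokines, Ccl5, which draws T cells, reached 51.2 and passed the floor on 8 arrays, Ccl2, which draws monocytes, reached 56.4 on 12 arrays above it, and the interferon-inducible Cxcl10 reached 31.6 on 5. For these genes a difference between groups was not measurable at this signal. The 5 probe sets of Il4, the type 2 helper cytokine, reached at most 47.6. Il4 and Il10 each include 1 of the array's control probe sets, which were not tested.

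Among brighter members, some signals stayed in a narrow range over the 24 arrays. Tnfrsf1a (92793_at), the main receptor for TNF, ran from 251.7 to 552.4. Il27ra, the receptor chain for IL-27, ran from 212.4 to 566.8, and Il17ra (99992_at), a receptor for IL-17, from 124.1 to 245.9. These were not called in any comparison. The map of tested members shows such even rows beside the few with strong regional blocks.

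**Figure D1:**
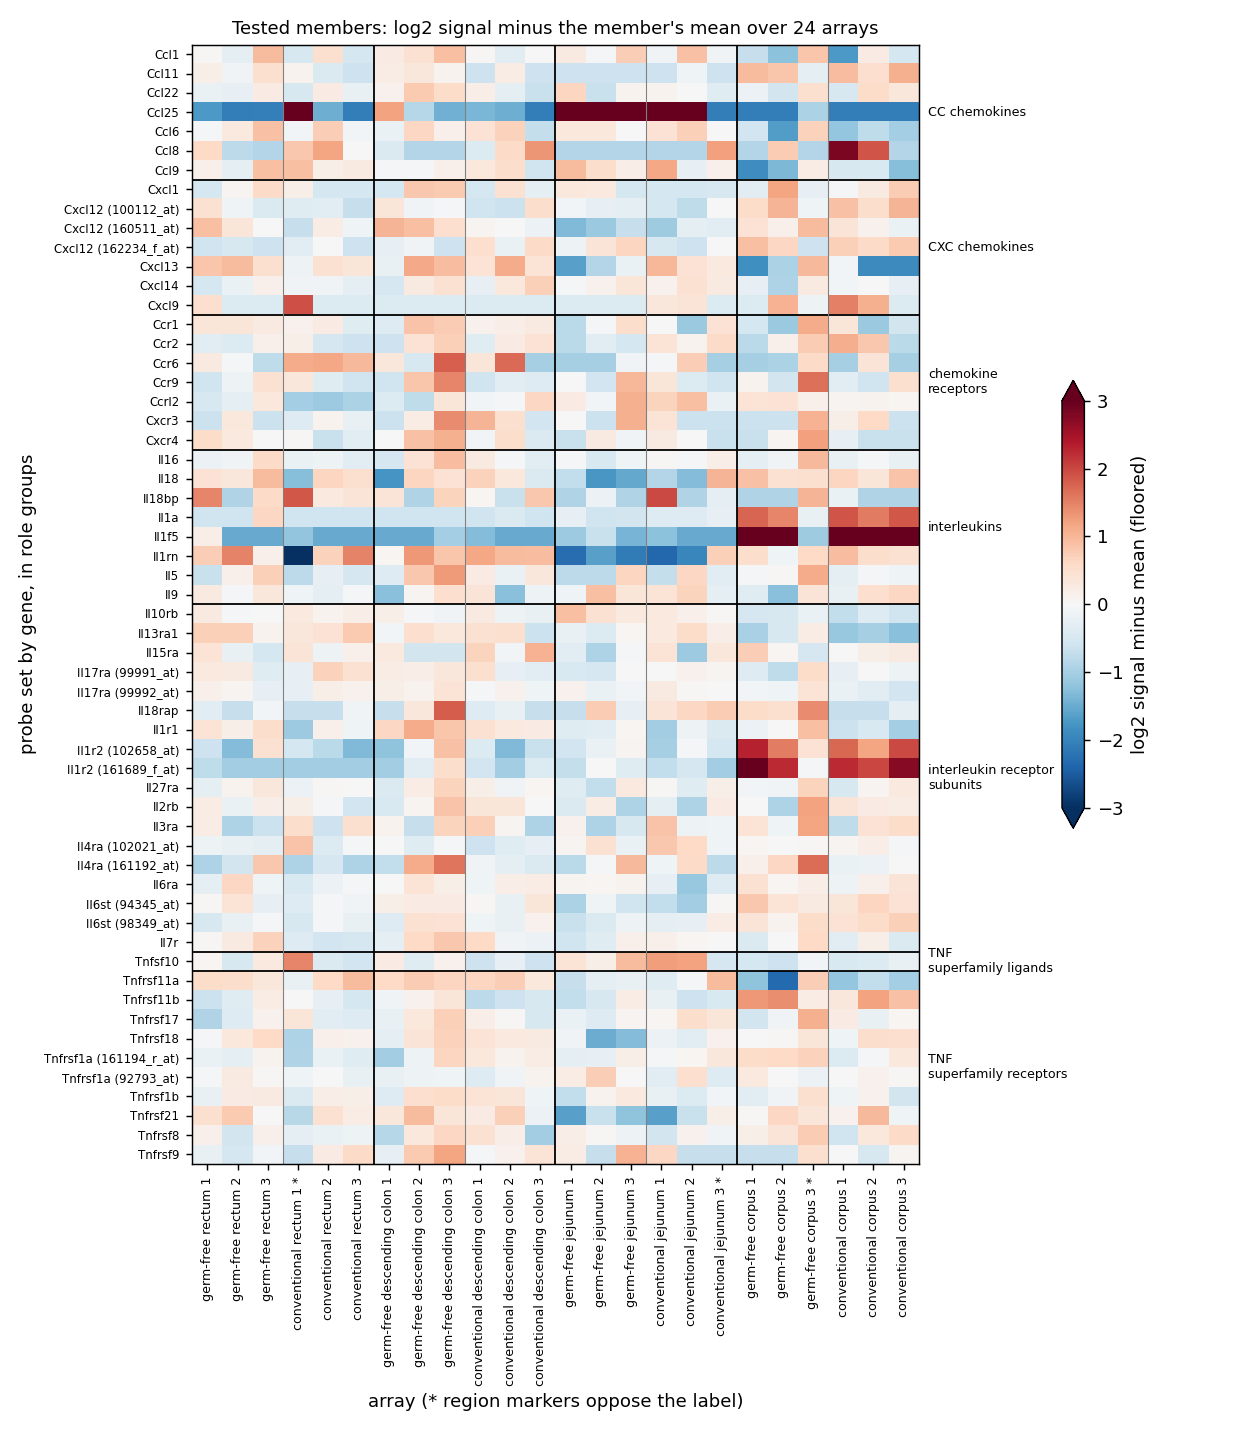
Log2 signal of each of the 58 tested probe sets minus its mean over 24 arrays, after the floor of 21.2; columns are arrays by region with germ-free left of conventional, rows are grouped by role, and colours end at 3 either way. Ccl25 stands out in jejunum and Il1f5, Il1a and Il1r2 in corpus, except in the starred libraries, whose region markers oppose their labels.

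Between jejunum and corpus, with both microbial states averaged, the chemokine Ccl25 was higher in the jejunum, and the IL-1 family genes Il1f5, Il1a, Il1rn and Il18 and the decoy receptor Il1r2 were lower. By limma, 20 of 58 members were called (34.5%), 6 higher and 14 lower in the jejunum. Over all 9033 probe sets 32.9% were called, 13.7% higher and 19.2% lower, so the members' share was near that of the array. The median log2 difference was -0.16 over members and -0.10 over all probe sets tested. Without 3 libraries 25 members were called, the earlier 20 among them, against 38.6% of all.

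Ccl25 (101403_at) encodes the chemokine that brings Ccr9-bearing lymphocytes to the small intestine. Its signals were 2751, 2165 and 2819 in germ-free jejunum and 2244, 2805 and 10 in conventional jejunum. In germ-free corpus they were 9.1, 14.6 and 46.5, and in conventional corpus 6.6, 6.5 and 5.2. The low jejunal value was that of conventional jejunum 3, whose markers oppose its label, and the 5 other jejunal arrays lay far above every corpus array. Ccl25 was 47.3-fold higher in the jejunum on the floored scale (log2 difference 5.56 ± 1.05, adjusted p = 0.000394). Without 3 libraries all 5 corpus arrays left were at or under the floor, and Ccl25 was at least 119.6-fold higher. Its receptor gene Ccr9 (98323_at) was dim in every region, with a median of 28.0 in jejunum, from 15.5 to 63.7, and of 29.7 in corpus, from 11.8 to 101.2.

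In the large intestine Ccl25 was low except on 2 arrays. It was at 27.2, 12.4 and 21.8 in germ-free rectum and at 2481, 32.4 and 21.1 in conventional rectum. In descending colon it was at 208.6, 49.3 and 33.1 in germ-free mice and at 34.5, 32.7 and 20 in conventional mice. The 2 high arrays were conventional rectum 1, where Apoa4 was also high, and germ-free descending colon 1, where Apoa4 was at 43.5 and Fabp2, the intestinal fatty acid binding protein gene, at 4005. The summed signal of 6 of 6 listed enterocyte markers (Apoa4, Apoa1, Fabp2, Lct, Enpep and Mep1a) had outlying arrays in common with Ccl25 in 3 regions. It ran from 620 to 44358 in jejunum, with its lowest in conventional jejunum 3, and from 714.7 to 22451 in rectum, with its highest in conventional rectum 1. In descending colon it ran from 603 to 5645, with its highest in germ-free descending colon 1. In corpus the sum ran from 1862 to 4289 and did not move with Ccl25. It was lowest in germ-free corpus 3, where Ccl25 was at 46.5, and the other corpus arrays had Ccl25 under the floor. The part of these markers in the result was not tested.

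Other CC chemokines split by region. Ccl9 and Ccl6, related chemokines of myeloid cells in mice, were both higher in jejunum than in corpus. Ccl9 had a median of 182.1 in jejunum, from 118.7 to 313.8, and of 79.2 in corpus, from 38.9 to 164.2 (log2 difference 1.32 ± 0.33, adjusted p = 0.00369). Ccl6 had a median of 186.9 in jejunum, from 151.2 to 244.2, and of 81.2 in corpus, from 47.2 to 241.7 (1.05 ± 0.32, adjusted p = 0.0140). In both cases the highest corpus array was germ-free corpus 3 and overlapped the jejunum. Ccl11 (eotaxin, which draws eosinophils) was lower in the jejunum, at a median of 16.9 against 59.95 in corpus (-1.21 ± 0.24, adjusted p = 0.000531). The floor set the size of this difference, since 5 of the 6 jejunal arrays lay under it: it was -1.83 with the floor at the 10th percentile of signals and -0.19 with it at the 40th. Macrophage markers also differed, with a sum over 10 of 10 listed genes of 4363 to 7104 in jejunum and 1992 to 4152 in corpus, and their part in the Ccl9 and Ccl6 results was not tested.

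Il1f5 encodes the antagonist of the IL-36 receptor and is known from squamous epithelium. Its probe set (104436_at) gave 28.4, 38.2 and 22.9 in germ-free jejunum and 25.6, 13.2 and 17.6 in conventional jejunum. Against this it was at 1739, 1155 and 28.7 in germ-free corpus and at 2094, 1618 and 1862 in conventional corpus. One corpus array, germ-free corpus 3, lay within the jejunal range, and the 5 others lay above all jejunal arrays. Il1f5 was 32.9-fold lower in the jejunum (log2 difference -5.04 ± 0.64, adjusted p = 1.16e-05), and 62.1-fold lower without 3 libraries. On the colon and rectum arrays it was between 12.7 and 69.4, with the highest value in germ-free rectum 1.

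Other IL-1 family genes were also lower in the jejunum. Il1a, an epithelial alarmin, had a median of 24.7 in jejunum, from 7.3 to 27.3, and of 102.2 in corpus, from 27.7 to 119.7, with no overlap between the 6 arrays of each (-1.79 ± 0.28, adjusted p = 6.29e-05). Its jejunal signals lay near the floor, and the difference ran from -0.86, with the floor at the 40th percentile, to -2.12 without 3 libraries. Il1r2, a decoy receptor that binds IL-1 without signalling, fell on both of its probe sets: by 2.6 ± 0.37 on 161689_f_at (adjusted p = 2.90e-05) and by 1.90 ± 0.37 on 102658_at (adjusted p = 0.000497). Il1r2 (102658_at) was at 26.9 to 56.3 in jejunum and 72.1 to 263.7 in corpus, so the regions did not overlap. On 161689_f_at they overlapped narrowly, at 8.1 to 43.5 in jejunum and 42.8 to 364.3 in corpus, the lowest being germ-free corpus 3. Squamous epithelium markers also differed between these regions. Their sum over 7 of 7 listed genes (Krt13, Krt4, Lgals7, Krtdap, Sprr3, Krt5 and Krt14) was 292.2 to 647.9 in jejunum and 653.8 to 50850 in corpus. In the corpus that sum was lowest in germ-free corpus 3, and in the rectum it was highest, at 4061, in germ-free rectum 1, the rectal array with the highest Il1f5. In rectum Il1a (49.5) and Il1r2 on 102658_at (72.6) were highest in germ-free rectum 3, and Il1r2 on 161689_f_at (25.8) in germ-free rectum 1. Corpus gland markers, over 3 of 4 listed genes, summed to 169.5 to 1555 in jejunum and 305.1 to 35661 in corpus. Their sum was also lowest in germ-free corpus 3 within corpus and highest, at 3770, in germ-free rectum 1 within rectum. The part of squamous or gland tissue in these results was not tested.

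**Figure D2:**
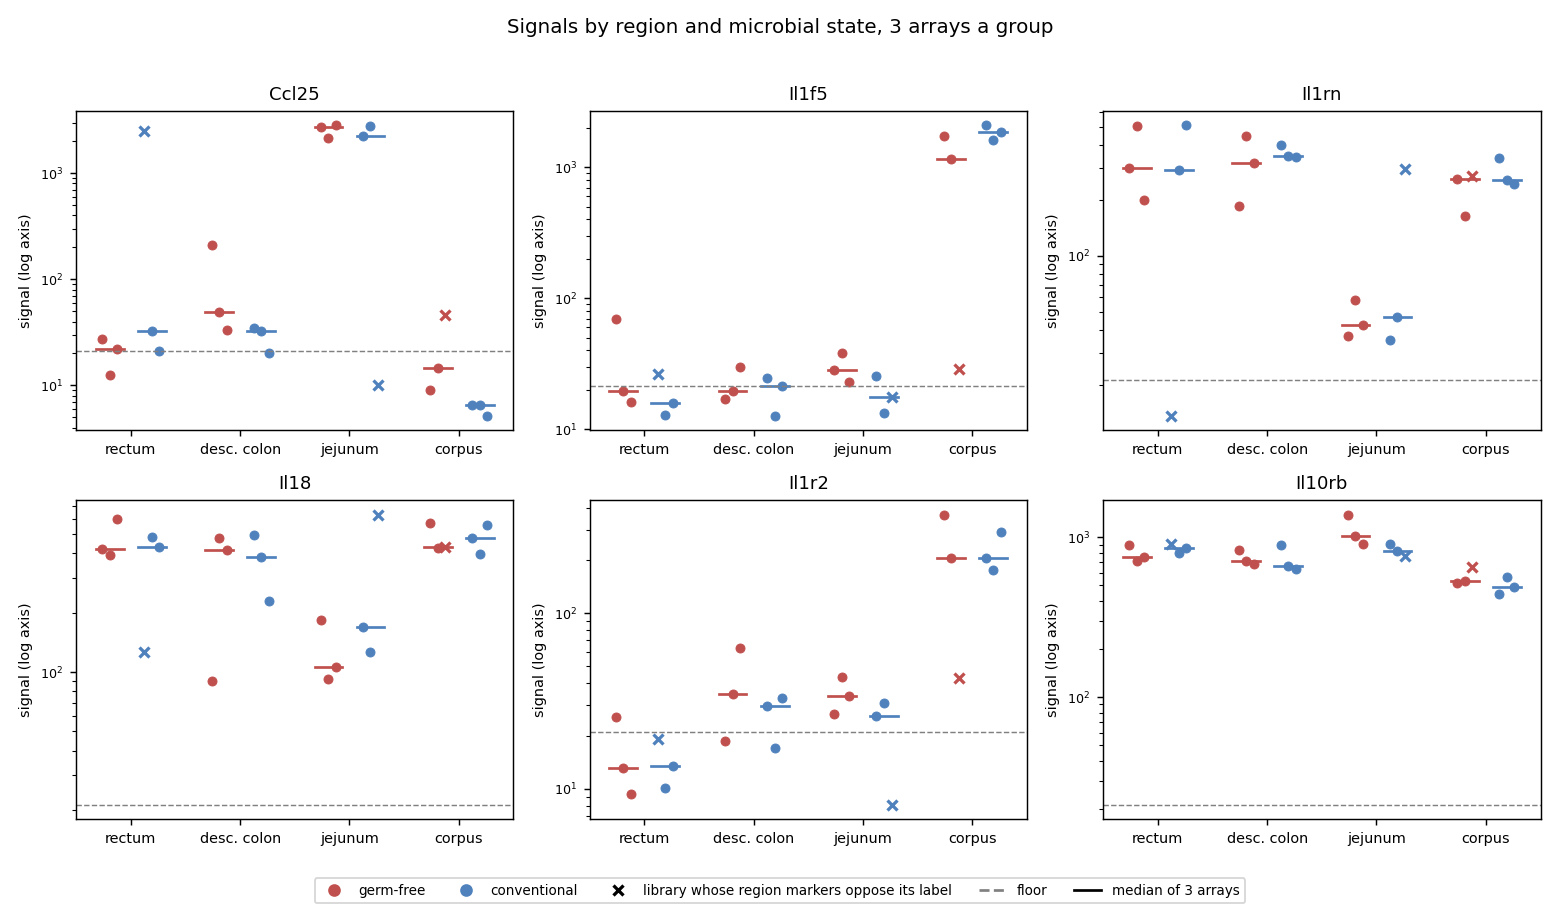
Signals (log axis) of 6 members on each array, by region, with germ-free left of conventional; lines are medians of 3 arrays, crosses are the 3 libraries whose markers oppose their labels, the dashed line is the floor of 21.2, and the Il1r2 panel is probe set 161689_f_at. Ccl25 is high in jejunum and Il1f5 and Il1r2 in corpus, while Il1rn and Il18 are low in jejunum alone.

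Il1rn and Il18 showed a different order, high at both ends of the tract and low in the jejunum. Il1rn, the IL-1 receptor antagonist, gave 36.9, 58.0 and 42.4 in germ-free jejunum, against 35.1, 46.6 and 295.3 in conventional jejunum. In corpus it was at 260.2, 165.2 and 271.2 in germ-free and at 340.8, 258.5 and 245.4 in conventional mice. The one high jejunal value was again that of conventional jejunum 3. Il1rn fell by 2.08 ± 0.58 on the log2 scale in jejunum relative to corpus (adjusted p = 0.00894) and was 5.54-fold higher in descending colon than in jejunum (2.47 ± 0.58, adjusted p = 0.00961). In descending colon Il1rn was at 187.2, 444.7 and 318.0 in germ-free and at 400.9, 347.4 and 344.6 in conventional mice. In rectum it was at 300.3, 504.6 and 200.2 in germ-free and at 13.7, 292.1 and 508.5 in conventional mice, the low value being that of conventional rectum 1.

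Il18, an epithelial cytokine released after caspase-1 cleavage, measured 184.1, 92.2 and 106.1 in germ-free jejunum and 169.2, 126.3 and 628.4 in conventional jejunum. Its corpus values were 569.8, 426.7 and 432.4 in germ-free and 481.0, 396.3 and 559.0 in conventional mice. Apart from conventional jejunum 3, every jejunal array lay below every corpus array, and Il18 fell by 1.48 ± 0.43 in jejunum (adjusted p = 0.0110). Against jejunum, descending colon had a log2 difference of 0.84 ± 0.43 (adjusted p = 0.202), and without 3 libraries of 1.19 (adjusted p = 0.0141). The low value there was germ-free descending colon 1 at 90.6, against 229.4 to 496.7 on the other 5 colon arrays. Casp1, which encodes the enzyme that activates IL-18, went the other way between jejunum and corpus and was higher in the jejunum (429.8 ± 150.9 against 187.8 ± 208.2, SD, n = 6 each; log2 difference 1.57 ± 0.33, adjusted p = 0.000904).

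Among receptor subunits, Il10rb, the shared second chain of the IL-10, IL-22 and interferon lambda receptors, was higher on every jejunal array than on every corpus array. Il10rb signals were 1381, 1015 and 902.6 in germ-free jejunum and 903.0, 821.7 and 758.1 in conventional jejunum. It was at 517.9, 531.3 and 646.9 in germ-free corpus and at 444.5, 560.4 and 487.2 in conventional corpus. The jejunum was 1.79-fold higher (0.84 ± 0.12, adjusted p = 3.68e-05). Il13ra1, a chain of the IL-13 receptor, was also higher in the jejunum, at a mean of 193.9 ± 46.2 against 112.4 ± 50.7 in corpus (SD, n = 6 each; 0.85 ± 0.21, adjusted p = 0.00407). For Il13ra1 the regions overlapped, at 135.6 to 263 in jejunum and 75.1 to 208.5 in corpus, the highest corpus value being germ-free corpus 3. Il6st (gp130, the signalling chain shared by IL-6 family receptors) was lower on both probe sets, by 1.06 ± 0.18 on 94345_at (adjusted p = 0.000155) and by 0.72 ± 0.17 on 98349_at (adjusted p = 0.00267).

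Stromal and TNF receptor genes made up the rest of those lower in the jejunum. Cxcl12, a chemokine made by stromal cells that binds Cxcr4, was called on 2 of its 3 tested probe sets. Its values on 160511_at had a median of 94.8 in jejunum, from 69.5 to 142.4, and of 209.5 in corpus, from 149.5 to 332.6, without overlap (-1.11 ± 0.21, adjusted p = 0.000348). On 100112_at the difference was -0.97 ± 0.23 (adjusted p = 0.00264), and on 162234_f_at -0.53 ± 0.25 (adjusted p = 0.111). Smooth muscle markers moved the same way, with a sum over 6 of 6 listed genes of 4842 to 13487 in jejunum and 16177 to 27864 in corpus, and their part in the Cxcl12 and Ccl11 results was not tested.

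Tnfrsf11b, the soluble decoy osteoprotegerin, fell by 1.27 ± 0.23 in the jejunum (43.7 to 85.8 against 85.9 to 190.8 in corpus, adjusted p = 0.000271). Tnfrsf21 (death receptor 6) fell by 1.26 ± 0.30 (adjusted p = 0.00253) and Tnfrsf18 (GITR, a receptor of regulatory T cells) by 0.76 ± 0.25 (adjusted p = 0.0228). Both overlapped between the regions. Tnfrsf21 was at 48.5 to 170.5 in jejunum and 137 to 296.1 in corpus, and Tnfrsf18 at 38.3 to 118.3 and 98.4 to 154.7. The highest jejunal value of each was in conventional jejunum 3. Tnfsf10, which encodes the death ligand TRAIL and was the only TNF superfamily ligand that could be tested, was 1.96-fold higher in the jejunum (53.3 ± 22.3 against 23.4 ± 7.06, SD, n = 6 each; adjusted p = 0.0332). That call was lost when any 1 of 8 of the 12 jejunal and corpus arrays was left out, with an adjusted p of up to 0.0960. It was also lost with the floor at the 40th percentile of signals, where the log2 difference was 0.24. No chemokine receptor of the 7 tested was called between these regions.

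Between descending colon and jejunum 8 of 58 members were called (13.8%), 6 higher and 2 lower in the colon, against 14.4% of all probe sets (9.10% higher and 5.34% lower). This comparison uses the same jejunal arrays as the one with the corpus, so the pair are not independent. Ccl25 was 25.5-fold lower in descending colon (63.0 ± 71.9 against 2132 ± 1079, SD, n = 6 each; log2 difference -4.67 ± 1.05, adjusted p = 0.00749) and 56.5-fold lower without 3 libraries. Il10rb was 1.29-fold lower (-0.37 ± 0.12, adjusted p = 0.0487). Its call was lost when any 1 of 8 of the 12 arrays was left out (adjusted p up to 0.146) and with quantile normalization, with no intensity trend or in a fit of the compared arrays alone. Without 3 libraries 12 members were called, the earlier 8 among them, against 24.8% of all, and without 5 libraries 15, against 25% of all.

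Higher in the colon were Il1rn, given above, and 5 stromal or receptor genes. Cxcl12 (160511_at) was at 152.1 to 349.5 in descending colon, with a median of 215.6, above all 6 jejunal arrays (1.19 ± 0.21, adjusted p = 0.00226). Its other tested probe sets were not called here, and the regions overlapped. On 100112_at they were at 78.5 to 174.6 in descending colon and 71.7 to 121 in jejunum, and on 162234_f_at at 13.4 to 48.5 and 14.5 to 51.1. Il1r1, the signalling IL-1 receptor, was at 144.8, 205.0 and 168.6 in germ-free colon and 129.9, 115.3 and 111.5 in conventional colon. In jejunum it was at 73.2, 76.2 and 99.4 in germ-free and at 46.1, 85.1 and 69.6 in conventional mice. All colonic arrays lay above all jejunal arrays for this receptor (0.96 ± 0.22, adjusted p = 0.00884). Tnfrsf21 was higher by 1.34 ± 0.30 (adjusted p = 0.00676), Il6st (94345_at) by 0.71 ± 0.18 (adjusted p = 0.0145) and Tnfrsf18 by 0.83 ± 0.25 (adjusted p = 0.0288). For Tnfrsf21, Il6st (94345_at) and Tnfrsf18 the regions overlapped. The other Il6st probe set, 98349_at, was not called, at 69.2 to 124.3 in descending colon and 57.1 to 104.9 in jejunum. The Il6st call was lost without conventional jejunum 2 (adjusted p = 0.0508) and with array medians equalised (0.0880), and the Tnfrsf18 call with either other scaling, in a fit of the compared arrays alone and when any 1 of 8 arrays was left out (up to 0.0816). The sum of smooth muscle markers was 12127 to 23657 in descending colon and 4842 to 13487 in jejunum, and its part in these results was not tested.

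**Figure D3:**
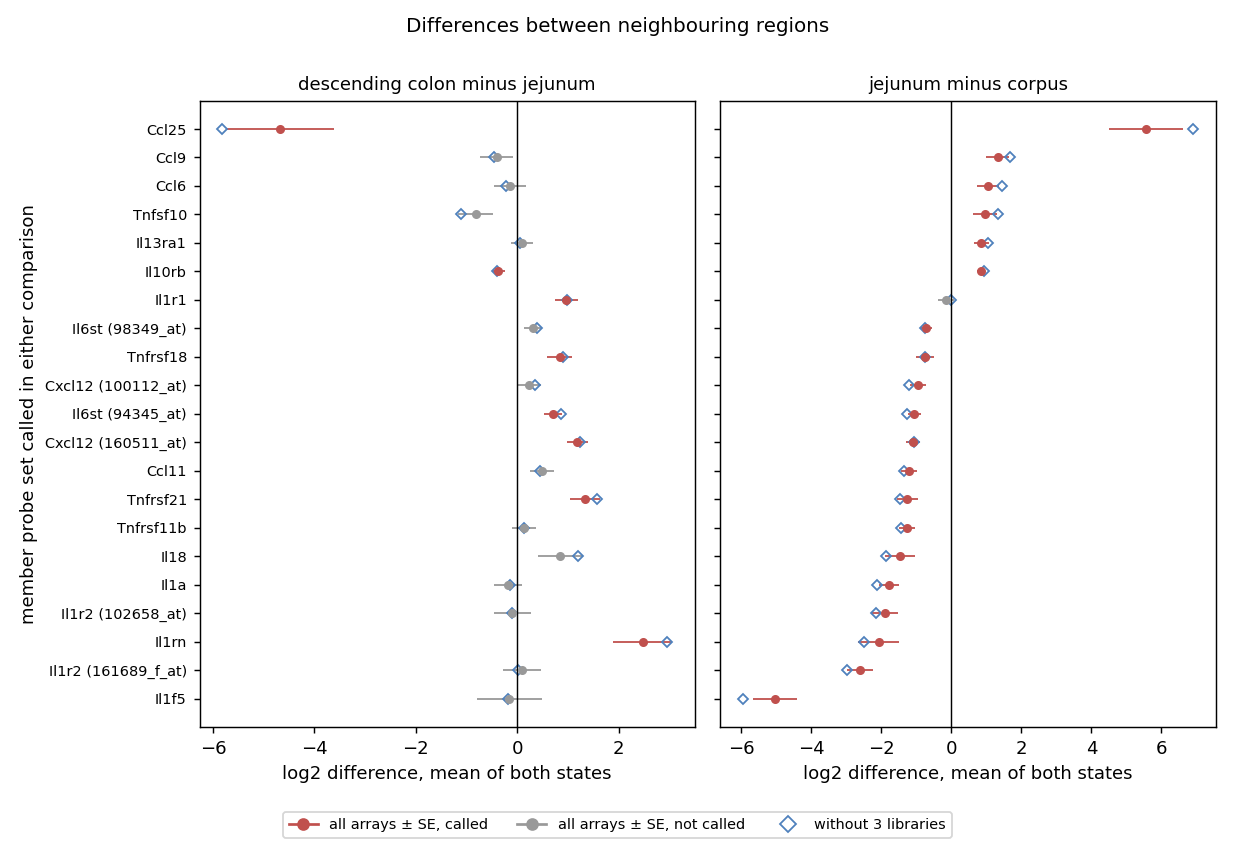
Log2 differences between neighbouring regions, averaged over both microbial states, for the 21 member probe sets called in either comparison (circles with SE bars, red where called); open diamonds are the estimates without 3 libraries. Ccl25 is at 5.56 for jejunum minus corpus and at -4.67 for descending colon minus jejunum.

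Tnfrsf11a, the receptor RANK, had 208.8 to 284.3 in descending colon, 103.7 to 324.2 in jejunum and 33.1 to 278.5 in corpus. Colon minus jejunum was 0.73 ± 0.35 (adjusted p = 0.175) and jejunum minus corpus 0.85 ± 0.35 (adjusted p = 0.0694). Its highest jejunal value was in conventional jejunum 3 and its highest corpus value in germ-free corpus 3, the libraries with hindgut markers. Without 3 libraries both differences were called, at 0.92 (adjusted p = 0.000850) and 1.07 (adjusted p = 0.000166).

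Between rectum and descending colon no member of 58 was called by limma, as for the array as a whole (0 of 9033), and 2 members had an unadjusted p under 0.05, against 2.24% of all probe sets. These were Il1r1, with a log2 difference of -0.58 ± 0.22 in rectum (101.2 ± 32.7 against 145.8 ± 35.7 in descending colon, SD, n = 6 each; limma adjusted p = 1), and Ccrl2, an atypical receptor that does not signal through G proteins, with -0.53 ± 0.24 (limma adjusted p = 1).

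The comparison of germ-free with conventional mice asks how these genes relate to the presence of a microbiota. Averaged over the 4 regions, Il1r1 was the only member called, and it was higher in germ-free mice. This was 1 of 58 members (1.72%), against 1.68% of all probe sets (0.819% higher and 0.864% lower). Without 3 libraries it was 0 of 58 by limma, against 1.46%. The median log2 difference of the members was 0.09, and 35 of 58 were above 0, against a median of 0.03 and 55.9% above 0 over all probe sets. With array medians equalised 30 of 56 were above 0, and with quantile normalization 28 of 56.

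Il1r1 (93914_at) averaged 124.6 ± 42.8 in germ-free and 80.9 ± 29.4 in conventional mice (SD, n = 12 each; log2 difference 0.64 ± 0.16, limma adjusted p = 0.0448). In rectum it was at 126.7, 107.1 and 136.2 in germ-free mice and at 44.7, 105.5 and 86.7 in conventional mice. In corpus it was at 84.1, 96 and 177.4 in germ-free mice and at 60.7, 69.3 and 47.0 in conventional mice. The groups did not overlap in rectum, corpus and descending colon, and in jejunum they overlapped (73.2 to 99.4 against 46.1 to 85.1). In rectum the gap was narrow, with the lowest germ-free array at 107.1 and the highest conventional array at 105.5. The lowest rectal and the highest corpus value belonged to conventional rectum 1 and germ-free corpus 3, and without 3 libraries the difference was 0.48 (adjusted p = 0.0860). The call was also lost when any 1 of 19 of the 24 arrays was left out, with an adjusted p of up to 0.0917, with the replicate block (0.148) and with no filter on low signal (0.0616). Array medians ran from 68.6 to 103.5 in germ-free and from 74.2 to 85.9 in conventional mice, and with medians equalised the difference was 0.56 (adjusted p = 0.0465).

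**Figure D4:**
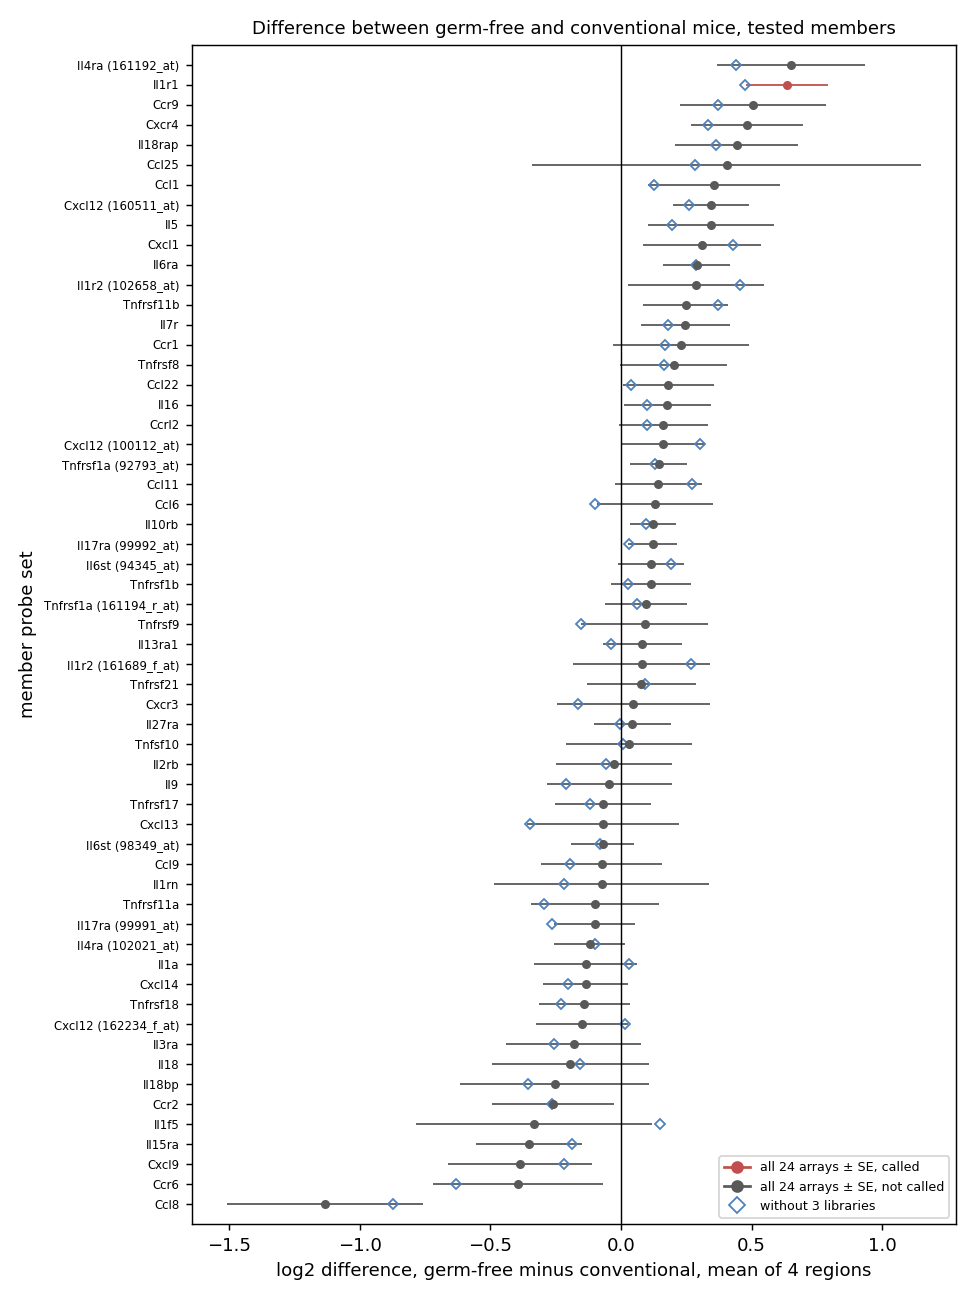
Log2 difference, germ-free minus conventional, averaged over 4 regions, for the 58 tested probe sets (circles with SE bars, the called one in red); open diamonds are the estimates without 3 libraries. Il1r1 at 0.64 is the one called, Ccl8 at -1.13 lies lowest, and 35 of 58 circles are right of 0.

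Of the other members, 5 had an unadjusted p under 0.05 for the mean over regions, against 18.1% of all probe sets, and did not pass the adjustment. Ccl8, a chemokine of monocytes and eosinophils, averaged 23.2 ± 19.0 in germ-free and 77.9 ± 73.7 in conventional mice (SD, n = 12 each; -1.13 ± 0.38, limma adjusted p = 0.124). Its corpus values were 15.5, 65.1 and 9.1 in germ-free and 275.2, 142.7 and 19.9 in conventional mice. In descending colon Ccl8 was at 28.6, 9.2 and 11 in germ-free and at 28.9, 58.0 and 97.5 in conventional mice. The germ-free colonic arrays lay below the conventional ones with a narrow gap, and the other regions overlapped. Without conventional corpus 3 the difference was called, at -1.40 (adjusted p = 0.0212). The size of the difference moved with the floor, being -1.51 with it at the 10th percentile and -0.54 with it at the 40th, and neither was called (adjusted p = 0.104 and 0.166).

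The remaining 4 were higher on average in germ-free mice. Cxcl12 (160511_at) had a log2 difference of 0.35 ± 0.15 (limma adjusted p = 0.219), its receptor gene Cxcr4 0.48 ± 0.21 (adjusted p = 0.243), Il4ra (161192_at) 0.65 ± 0.28 (adjusted p = 0.232) and Il6ra 0.29 ± 0.13 (adjusted p = 0.241). The other tested Cxcl12 probe sets had 0.16 ± 0.16 (100112_at, adjusted p = 0.633) and -0.15 ± 0.18 (162234_f_at, adjusted p = 0.696). The other Il4ra probe set, 102021_at, had -0.12 ± 0.14 (adjusted p = 0.683). Ccr9 and Ccr6, receptors of lymphocytes that home to the gut, had 0.51 ± 0.28 (limma adjusted p = 0.352) and -0.39 ± 0.33 (adjusted p = 0.545).

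Within single regions no member was called. In corpus this was 0 of 58 by limma, as for the array (0 of 9033), with 7 members at an unadjusted p under 0.05 against 9.04% of all. In jejunum it was 0 of 58 against 0.465% of all, with 4 at an unadjusted p under 0.05 against 13.1%. In descending colon it was 0 of 58 against 0.0111%, with 3 against 8.11%, and in rectum 0 of 58 against 0.0111%, with 4 against 3.49%. Without 3 libraries none was called either, against 0.0664% of all probe sets in corpus, 0.565% in jejunum, 0.0886% in descending colon and 0.0111% in rectum. Without 5 libraries none was called, against 0.0332% in corpus, 0.531% in jejunum, 0.753% in descending colon and 0.0111% in rectum.

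In the jejunum the members of lowest p were Il6ra, Cxcl13 and Tnfrsf18. Il6ra, the IL-6 binding chain, was at 105.5, 102.7 and 106.4 in germ-free and at 83.9, 45.2 and 75.1 in conventional mice (0.67 ± 0.26, limma adjusted p = 0.247). Cxcl13, which draws B cells into lymphoid follicles, was at 25.6, 43.2 and 70.0 in germ-free and at 158.4, 107.1 and 98.4 in conventional mice (-1.48 ± 0.58, limma adjusted p = 0.262). Ccr2, the monocyte receptor for Ccl2, was at 9.9, 29.1 and 25.9 in germ-free and at 49.2, 39.8 and 55.4 in conventional mice (-0.92 ± 0.47, limma adjusted p = 0.417). In each of Il6ra, Cxcl13 and Ccr2 the groups did not overlap. The last conventional value of each belonged to conventional jejunum 3, whose region markers oppose its label. Without 3 libraries the Cxcl13 difference was -1.61. Germ-free arrays lay below all conventional ones for 5 of 58 members in jejunum (Ccr2, Cxcl13, Il13ra1, Il16 and Il17ra 99991_at), against 8.47% of all probe sets, and above them for 1, against 6.90%.

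Several lists of leukocyte markers differed between the same jejunal arrays. The sum over 8 of 9 listed B cell markers was 751.8 to 959.3 in germ-free and 1262 to 2288 in conventional jejunum. For 11 of 12 T cell markers it was 242.7 to 394.0 in germ-free and 470.0 to 579.5 in conventional jejunum, and for 6 of 6 pan-leukocyte markers 702.1 to 902.7 in germ-free and 1443 to 2220 in conventional jejunum. None of the listed markers on the array in these 3 lists was at the floor on every array. Macrophage and monocyte markers overlapped, at 4363 to 5597 in germ-free and 4955 to 7104 in conventional jejunum. Neutrophil markers overlapped too, at 145.1 to 213.1 and 124.5 to 199.1. Mast cell markers did not, at 470.9 to 654.5 and 750.4 to 950.5. The conventional group includes conventional jejunum 3, whose region markers oppose its label. Its sums were 2072 for B cells, 470.0 for T cells, 1541 for pan-leukocyte and 750.4 for mast cell markers. The part of any of these cell types in the Cxcl13 and Ccr2 values was not tested.

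In the corpus the members of lowest p were receptor genes of the IL-1 family. Il18rap, a chain of the IL-18 receptor, was at 50.0, 47.6 and 90.5 in germ-free and at 12.4, 12.7 and 28.3 in conventional corpus (1.36 ± 0.47, limma adjusted p = 0.415). Il1r1, with the values given above, had 0.95 ± 0.32 (limma adjusted p = 0.415). Il1f5 had a log2 difference of -2.26 ± 0.91 (limma adjusted p = 0.496), which was -0.38 without 3 libraries. Germ-free arrays lay above all conventional ones for 8 of 58 members, against 7.79% of all probe sets, and below them for 0, against 5.32%. For the 8 (Ccrl2, Il13ra1, Il17ra 99992_at, Il18rap, Il1r1, Il4ra 161192_at, Il5 and Tnfrsf1a 161194_r_at) the corpus group included germ-free corpus 3, whose array median of 102.5 was the highest of its group, against 82.1 at the lowest. On the other tested probe sets of Il17ra (99991_at), Il4ra (102021_at) and Tnfrsf1a (92793_at) the corpus groups overlapped.

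In descending colon Cxcl12 (160511_at) was at 349.5, 321.8 and 247.0 in germ-free and at 184.1, 172.9 and 152.1 in conventional mice (0.84 ± 0.29, limma adjusted p = 0.602). The groups did not overlap, but the probe set 162234_f_at of the same gene had -0.62 ± 0.35 there (limma adjusted p = 0.661). Tnfrsf11b was at 68.2, 79.5 and 94.1 in germ-free and at 42.6, 47.8 and 52.8 in conventional colon (0.75 ± 0.33, limma adjusted p = 0.602). Ccl22, a chemokine of dendritic cells that binds Ccr4, was at 142.9, 224.9 and 192.7 in germ-free and at 149.2, 106.4 and 82.6 in conventional colon, with overlap (limma adjusted p = 0.612). Of the members 42 of 58 were above 0 in this region, against 58.1% of all probe sets, and 26 of 56 were with array medians equalised. Germ-free arrays lay above all conventional ones for 4 of 58, against 8.16% of all, and below them for 1, against 5.88%.

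In rectum Ccrl2 was at 49.0, 56.8 and 85.2 in germ-free and at 33.5, 32.1 and 35.2 in conventional mice (0.88 ± 0.34, limma adjusted p = 0.982). Il7r, the receptor for the lymphocyte survival factor IL-7, was at 34.6, 41.2 and 55.2 in germ-free and at 25.9, 23 and 24 in conventional rectum (0.82 ± 0.34, limma adjusted p = 0.982). Ccr6, a receptor of B cells and type 17 helper T cells, was at 51.3, 40.6 and 25 in germ-free and at 91.2, 94.8 and 83.0 in conventional rectum (-1.26 ± 0.65, limma adjusted p = 0.982). In these 3 genes the groups did not overlap. The first conventional value of each belonged to conventional rectum 1, whose region markers oppose its label. Germ-free arrays lay above all conventional ones for 5 of 58, against 6.68% of all, and below them for 1, against 4.42%.

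**Figure D5:**
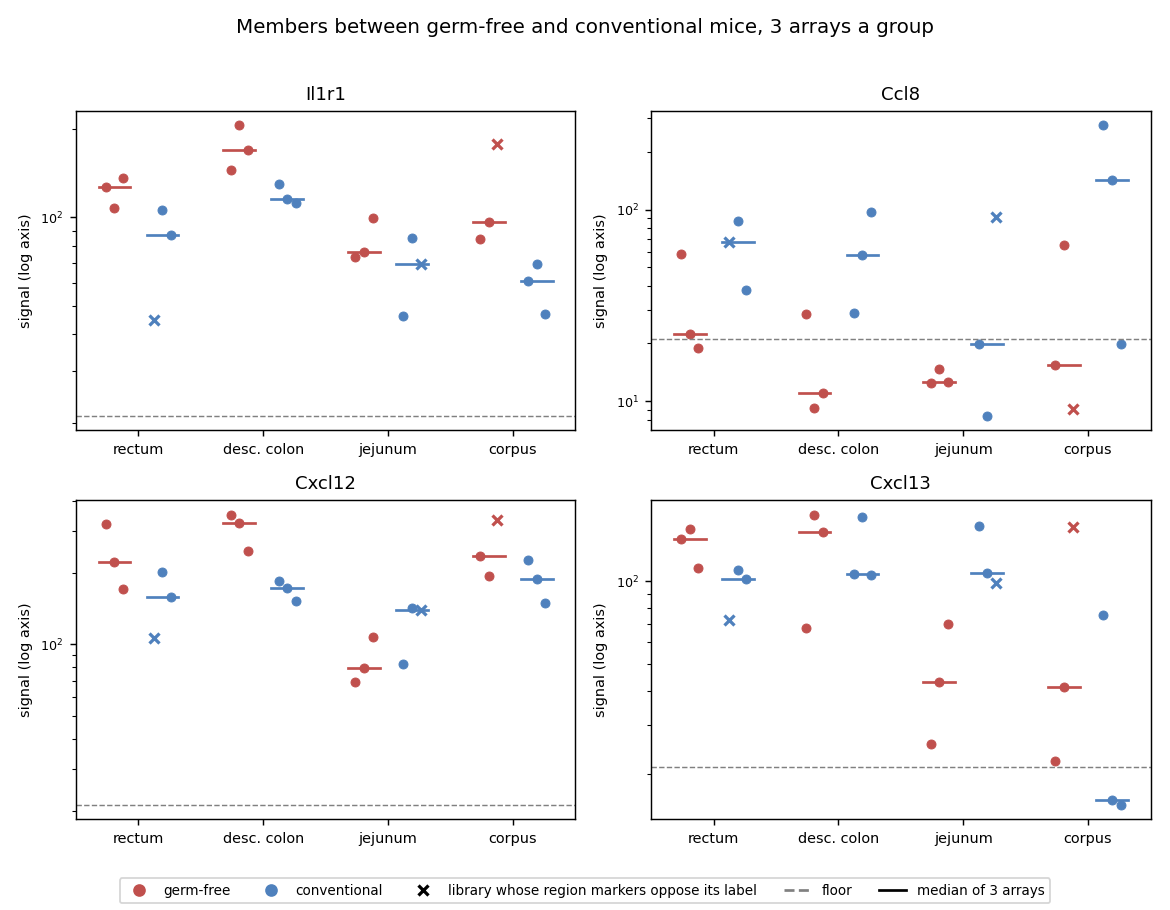
Signals (log axis) of Il1r1, Ccl8, Cxcl12 (160511_at) and Cxcl13 on each array by region, with germ-free left of conventional; lines are medians of 3 arrays, crosses are the 3 libraries whose markers oppose their labels and the dashed line is the floor of 21.2. Il1r1 groups overlap in jejunum alone, and Cxcl13 lies lower in germ-free than in conventional jejunum.

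Whether the status difference itself varied with region was asked with a moderated F test over all 4 regions. No member of 58 was called, against 0.0221% of all probe sets, and 2 had an unadjusted p under 0.05 against 5.40% of all. Without 3 or 5 libraries none was called, against 0.0775% of all in each case. Those of lowest p were Cxcl12 (160511_at, limma adjusted p = 0.904), Il18rap (0.904), Il13ra1 (0.906) and Cxcl13 (0.906). A status difference particular to 1 region was therefore not shown for any of these genes.

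A pair of further lists places these genes among their partners. Of 48 other cytokines, growth factors and receptors, 43 were on the array and 33 of their probe sets were tested. None was called in any status comparison by limma. Of all probe sets 1.68% were called for the mean over regions, and from 0% in corpus to 0.465% in jejunum within single regions. Between jejunum and corpus 12 of 33 were called, 4 higher and 8 lower in the jejunum, against 32.9% of all probe sets. Ifngr1 and Ifngr2, the chains of the interferon gamma receptor, were both higher in the jejunum (1.04 ± 0.28, adjusted p = 0.00654, and 1.52 ± 0.27, adjusted p = 0.000232). The membrane-bound chemokine Cx3cl1 was higher (514.4 ± 159.4 against 191.9 ± 53.1, SD, n = 6 each) and its receptor Cx3cr1 lower (103.2 ± 35.9 against 156.7 ± 29.8, n = 6 each). Lifr, which pairs with gp130, fell on 3 probe sets, by 1.16 to 1.66, in the same direction as Il6st. Between descending colon and jejunum 4 of 33 were called, against 14.4% of all, 3 higher and 1 lower: Kitl (1.13 ± 0.21) and its receptor Kit (1.14 ± 0.23), the Cxcl12 scavenger Ackr3 (1.51 ± 0.29) and, lower, Cx3cl1 (-0.97 ± 0.25).

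Of 39 genes of cytokine signalling, 32 were on the array and 37 of their probe sets were tested. Between germ-free and conventional mice 1 of 37 was called, in jejunum, against 0.465% of all probe sets there. It was Nfkbiz, an inducible regulator of NF-kappa B target genes. None was called for the mean over regions, against 1.68% of all. Without 3 libraries Nfkbiz was called for that mean (-0.49, limma adjusted p = 0.0448), against 1.46% of all. It was then also called in the F test of status by region (limma adjusted p = 0.0248), against 0.0775% of all. Tyk2 was then called in corpus (-2.08, limma adjusted p = 0.0493), against 0.0664% of all. Nfkbiz averaged 116.3 ± 43.8 in germ-free and 367.5 ± 102.3 in conventional jejunum (SD, n = 3 each; -1.68 ± 0.30, limma adjusted p = 0.0160). Between jejunum and corpus 15 of 37 were called, 9 higher and 6 lower, against 32.9% of all probe sets. Socs3, a feedback inhibitor of gp130 signalling, was higher in the jejunum on 1 of its probe sets (1.69 ± 0.35, adjusted p = 0.000878), while the adaptors Myd88 and Irak1, which act below the IL-1 receptor, were lower (-0.50 ± 0.15 and -0.55 ± 0.13). Between descending colon and jejunum 4 of 37 were called, against 14.4% of all, among them Tnfaip3, an inhibitor of NF-kappa B, which was higher in the colon (1.49 ± 0.40, adjusted p = 0.0185), and Socs3, which was lower on the same probe set (-1.47 ± 0.35, adjusted p = 0.00996).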

How the data were processed

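The authors deposited 1 linear signal intensity per probe set and array. Every array had the same trimmed mean (200.1 over the central 96% of its values), so a common scaling by the authors was inferred. The signal algorithm and detection calls are not given in the sources used here. Gene names come from the platform annotation. All 114 members matched the gene table by Entrez identifier.

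No further scaling was applied. Signals were floored at 21.2 (25th percentile) and converted to log2. The 66 control probe sets were left out. The 9033 probe sets above 51.5 (40th percentile) on at least 3 arrays were fitted with limma 3.58.1 (R 4.3.3, statmod 1.5.0), with 8 group means and an intensity trend. p-values are two-sided and Benjamini-Hochberg adjusted over 9033. Means are ± SD, log2 differences ± SE. Folds are on the floored scale.

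Named members were those called, or of lowest p, in each comparison, the largest regional changes, the 12 of highest mean signal and listed genes of interest. The members and all lists were chosen with earlier results of these data known. Array probe sets of 1 gene were kept apart. The steps were tested on simulated data. Alternatives covered scaling, floor, filter, variance trend, replicate block, arrays in the fit, and leaving out arrays.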

Additional observations from a re-analysis of the deposited data

Results flagged for a closer look

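In 2 members every germ-free array lay on one side of every conventional array in 1 region and on the opposite side in another, which was so for 1.86% of all 9033 probe sets tested. Cxcl13 had a germ-free minus conventional log2 difference of -1.48 in jejunum and of 0.54 in rectum. Il13ra1 had 0.72 in corpus and -0.54 in jejunum. The F test of the difference between regions did not pass (limma adjusted p = 0.906 each), and no single regional difference was called. Without 3 libraries the values were -1.61 and 0.35 for Cxcl13 and 0.41 and -0.62 for Il13ra1.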

How the results depend on the processing

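No result changed sign past the threshold under any alternative run. The count of 1 member called for germ-free minus conventional over 4 regions became 0 with no filter, with the replicate block, without 3 libraries and without 5 libraries, and ran from 0 to 1 when single arrays were left out. The count of 8 for descending colon minus jejunum became 15 without 5 libraries, and ran from 5 (without conventional jejunum 2) to 11 (without conventional jejunum 3), while the count over all probe sets ran from 579 to 1844. For jejunum minus corpus it ran from 18 to 24, against 2487 to 3346 over all. The other counts were 0 under every setting and omission. The labels do not say whether equal array numbers pair samples, and the values did not settle it. Of 36 pairs of equal number, the same state and another region, 16 had correlated deviations over 0.1 (-0.50 to 0.67). Pairs of unequal number were not set beside them. With number and state as a random replicate block (correlation 0.120), 20 members were called for jejunum minus corpus, 9 for descending colon minus jejunum and 0 for all others. Equalising array medians moved the median of all probe sets by 0.18 for jejunum minus corpus, by -0.17 for descending colon minus jejunum and for colonic status, by -0.11 for rectal status and by 0.10 for rectum minus colon, and quantile normalization moved jejunum minus corpus by 0.11. Of the 114 probe sets 58 could be tested, the rest being too dim, and with 3 arrays a group small differences in dim genes were not detectable.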
